A study of Mus musculus with 6 samples.

Results

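Matrix metalloproteases (MMPs), the related ADAM and ADAMTS proteases and their natural inhibitors, the tissue inhibitors of metalloproteinases (TIMPs), were examined in the livers of ethanol-fed mice that lack Cd44 in myeloid cells. Members were taken by gene symbol and family, a choice made with earlier results of these data known. They were the protein-coding Mmp, Timp, Adamts and Adamts-like genes of the GENCODE M21 annotation together with 7 ADAM genes, which gave 57 of 54532 genes in the table: 22 Mmp, 4 Timp, 19 Adamts, 5 Adamtsl and 7 Adam genes.

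The knockout mice were LysMcre/+ Cd44flox/flox on the C57BL/6J/Rj background, and the controls were LysM+/+ Cd44flox/flox littermates, so both groups carried the floxed Cd44 alleles. Cre in this line is driven from the Lyz2 locus of myeloid cells and disrupts the Lyz2 allele it sits in, and no mice with Cre alone were analysed here, so an effect of the Cre allele and one of losing Cd44 cannot be told apart. Every mouse was fed a Lieber-DeCarli diet (6% ethanol, by volume) over 10 days. A gavage with 5 g/kg ethanol followed on day 11, and livers were taken after 9 hours. Whole-liver RNA was sequenced from 3 knockout and 3 control mice, and the labels state neither their age nor their sex. Total counts per liver ran from 21521174 to 24042917 in knockouts and from 18428224 to 23126828 in controls. The deleted gene followed the labels. Cd44 stood at 2.11, 1.92 and 3.01 CPM (read counts scaled to library size) in knockouts, against 32.6, 34.8 and 26.4 CPM in controls (adjusted p = 9.07e-05). Lyz2, the lysozyme gene into which Cre was inserted, stood at 41.3, 36.9 and 66.5 CPM in knockouts, against 195, 218 and 235 CPM in controls (adjusted p = 0.000756).

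MMPs are zinc-dependent proteases that are made as inactive precursors, and most are secreted and cut collagens, elastin or other matrix proteins once their propeptide is removed. TIMPs bind the active site of these proteases and block it. ADAMTS proteases are secreted and process proteoglycans, procollagens and von Willebrand factor, whereas ADAM proteases sit in the membrane and release the outer part of cell-surface proteins such as growth factors and cytokines. In the injured liver these enzymes come mainly from macrophages, neutrophils, stellate cells and endothelial cells, and CD44 itself both anchors MMP9 at the cell surface and is cut by MMP14 and ADAM10. Values below are CPM per liver, given in the order of mouse 1, 2 and 3, and log2 fold changes (log2) are knockout over control with their standard error (SE). A gene passed at a Benjamini-Hochberg adjusted p under 0.05 in edgeR's quasi-likelihood test over all genes tested. In whole-liver RNA, fewer cells of a type and less RNA per cell cannot be told apart.

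Of the 57 members, 41 had enough counts to be tested, and 18 of these were lower and 2 higher in the knockout livers. Over all 14758 genes tested, 25.0% passed, 13.1% as lower and 11.9% as higher. The fall was of at least 2-fold (log2 below −1) in 12 members and of at least 4-fold in 6, namely Adam8, Timp1, Adamts14, Mmp8, Mmp24 and Mmp13. The members that rose were Mmp19 and Adamts7. The median log2 of the 41 tested members was −0.86, and it was −0.01 over all tested genes. Groups did not overlap in 26 tested members that were lower and 2 that were higher, where 22.5% and 21.4% of all tested genes had such values. Without knockout liver 1, 10 members were lower and 1 (Adamts7) was higher. Without control liver 1 or control liver 3, the 1 higher member was Mmp19, without knockout liver 2 the higher members were Adamts7 and Mmp15, and there was no higher call without knockout liver 3. Scaling by library totals moved the median log2 of all genes to −0.26 and gave 29 lower and 0 higher members. With that scaling, 25.1% of all genes tested were lower and 6.13% higher. When 1 liver was left out, 7.78% to 12.1% of all genes tested were lower and 7.21% to 10.4% higher. Without knockout liver 1 these shares were 7.78% and 7.32%.

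**Figure D1:**
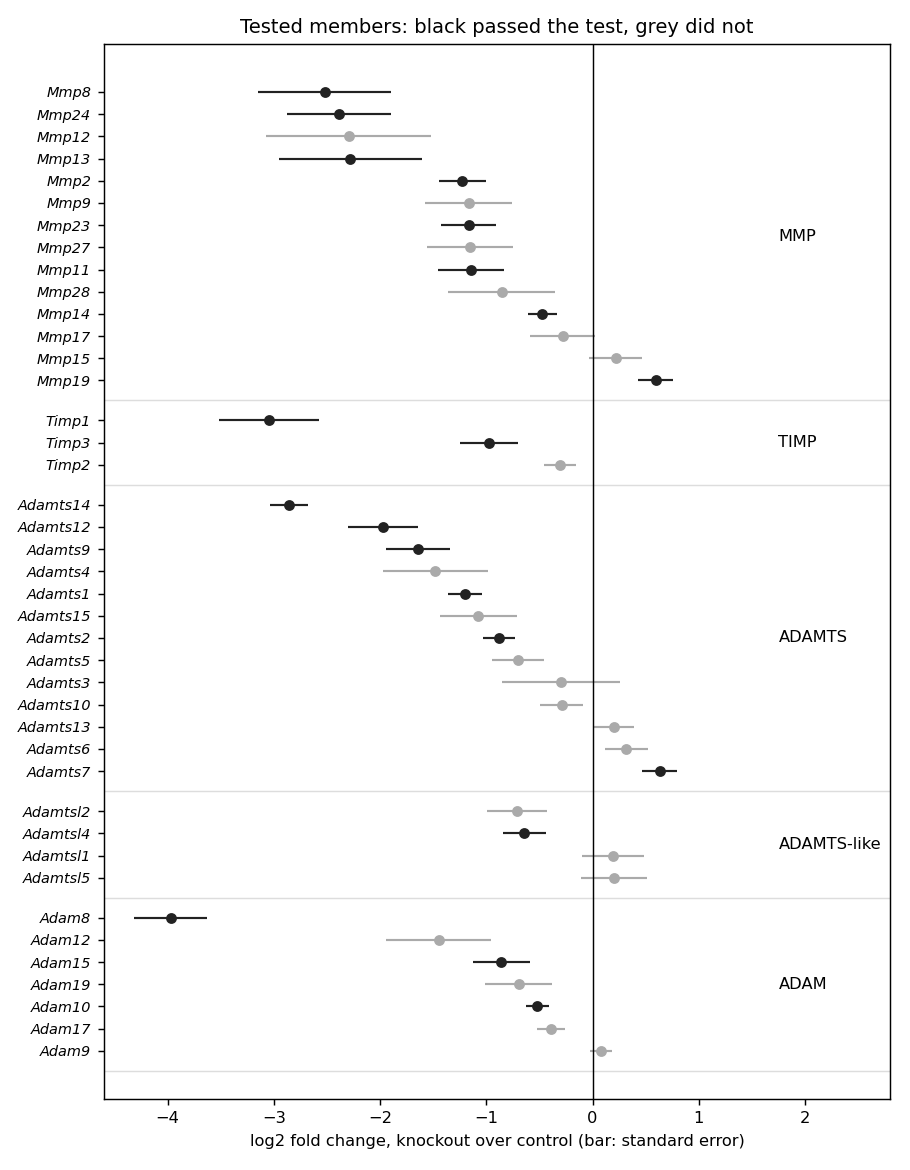
Log2 fold change, knockout over control, of the 41 tested members by family, with the standard error as bars and 3 livers per group. Black points passed the test and grey points did not; most points lie left of 0, with Adam8 at −3.97 farthest, and Mmp19 (0.60) and Adamts7 (0.63) are the black points on the right.

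Levels differed widely between members. Scaled to exon length, Adam9 was the most abundant member in both groups, at 26.4 CPM per kb in knockouts and 24.99 CPM per kb in controls (named after its values were seen). In knockout livers it was followed by Mmp19 (23.6 CPM per kb), Mmp14 (15.03 CPM per kb), Mmp15 (11.1 CPM per kb) and Adam10 (7.82 CPM per kb). In control livers the next were Mmp14 (20.8 CPM per kb), Mmp19 (15.6 CPM per kb), Adamts1 (13.8 CPM per kb) and Adam10 (11.2 CPM per kb). The 16 members that were not tested were near or at zero. Of these, 6 (Mmp1b, Mmp16, Mmp20, Adamts18, Adamts19 and Adamts20) had 0 counts in every liver. A count of 0 allows up to 0.125 to 0.163 CPM per liver when unscaled library totals are used. On the scaled library sizes of the other CPM values, 3 counts were 0.119 CPM in control liver 1 (Mmp3) and 0.148 CPM in knockout liver 3 (Adamts16). The other 10 were Mmp3, Mmp7, Mmp10, Mmp21, Mmp25, Timp4, Adamts8, Adamts16, Adamts17 and Adamtsl3, none with more than 15 counts in any liver.

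Among the secreted MMPs, the collagenases Mmp8 and Mmp13, the gelatinase Mmp2 and the stromelysin-type Mmp11 fell. Mmp13, the main interstitial collagenase of rodents, stood at 0.959, 0.144 and 3.01 CPM in knockout livers, against 7.19, 4.98 and 7.74 CPM in control livers. The knockout livers differed among themselves, with 20, 3 and 61 counts, yet all lay below the controls (log2 −2.28, SE 0.67, adjusted p = 0.0392). Mmp13 did not pass without knockout liver 1 or without any 1 of the 3 control livers (adjusted p 0.0701 to 0.123), nor with DESeq2 (adjusted p 0.0946), and its log2 was −3.57 without knockout liver 3. Mmp8, the collagenase stored by neutrophils, had 1, 6 and 3 counts in knockout livers, against 38, 12 and 17 counts in control livers. In CPM this was 0.162 ± 0.121 in knockouts and 0.943 ± 0.497 in controls (SD, n = 3 each), so the fitted fall (log2 −2.52, SE 0.63, adjusted p = 0.0209) rests on counts around the limit of 3. Mmp8 did not pass without knockout liver 1, knockout liver 3 or control liver 1 (adjusted p 0.0573 to 0.0706), and its log2 was −3.21 without knockout liver 2.

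Mmp2, gelatinase A of stellate cells and other mesenchymal cells, stood at 5.32, 6.59 and 5.13 CPM in knockout livers, against 17.2, 10.1 and 12.5 CPM in control livers. The groups did not overlap, and the 2.34-fold lower level (log2 −1.23, SE 0.22, adjusted p = 0.00596) passed in every alternative tried. Mmp9, gelatinase B, which myeloid cells make and CD44 can dock, stood at 0.671, 1.06 and 0.592 CPM in knockout livers, against 2.58, 1.499 and 1.13 CPM in control livers. Every knockout liver lay below every control liver, but the difference did not pass (log2 −1.17, SE 0.41, adjusted p = 0.0705). Mmp11, stromelysin 3, averaged 1.35 ± 0.384 CPM in knockouts and 2.99 ± 0.781 CPM in controls (SD, n = 3 each). It fell 2.21-fold (log2 −1.14, SE 0.31, adjusted p = 0.0297) and did not pass when any 1 liver other than knockout liver 2 was left out (adjusted p 0.0564 to 0.104). It shares 5.6% of its exon bases with the opposite-strand gene Chchd10, at 284 CPM in knockouts and 276 CPM in controls.

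Mmp12, macrophage elastase, gave the most variable values of the set. It stood at 7.10, 0.722 and 22.5 CPM in knockout livers, against 52.5, 41.3 and 55.0 CPM in control livers. No knockout liver reached the lowest control, but the knockouts spread over a range of 15 to 457 counts and the difference did not pass (log2 −2.30, SE 0.78, adjusted p = 0.0622). Mmp12 passed without knockout liver 2 (log2 −1.74, adjusted p = 0.0217) and without knockout liver 3 (log2 −3.66, adjusted p = 0.0112), with limma-voom, with library totals and with no filter. Over all 17 alternatives its adjusted p ran from 0.00137 to 0.176. The order of the knockout livers, with liver 3 highest and liver 2 lowest, was shared by Mmp13. Several macrophage marker lists had the same order. The 7 markers of lipid-associated macrophages summed to 122, 99.2 and 178 CPM in knockout livers, against 385, 350.5 and 350.5 CPM in control livers. The 10 Kupffer cell markers summed to 437, 272 and 550 CPM in knockout livers, against 901, 898 and 834 CPM in control livers. The 10 markers shared by myeloid cells, given below, had this order too. The other myeloid lists did not, with knockout liver 1 lowest and liver 3 highest. In knockout livers the 7 monocyte markers summed to 10.12, 10.25 and 13.85 CPM and the 10 neutrophil markers to 3.21, 5.92 and 8.38 CPM. The part of these cells in the Mmp values was not tested.

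Mmp12, Mmp13, Mmp8 and 6 further Mmp genes lie side by side on chromosome 9, in a cluster of 427 kb from 7272514 to 7699585 (GRCm38). In chromosome order these are Mmp13, Mmp12, Mmp1b, Mmp3, Mmp10, Mmp8, Mmp27, Mmp20 and Mmp7. Only 4 of the 9 were tested, and for each of these 4 all knockout livers lay below all control livers. Such values were found in 22.5% of all tested genes. Mmp27, another secreted MMP, averaged 0.937 ± 0.403 CPM in knockouts and 2.09 ± 0.636 CPM in controls (SD, n = 3 each) and did not pass (log2 −1.15, SE 0.40, adjusted p = 0.0689). Mmp3 (stromelysin 1) and Mmp7 (matrilysin), at most 15 counts in a liver, overlapped between the groups.

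**Figure D2:**
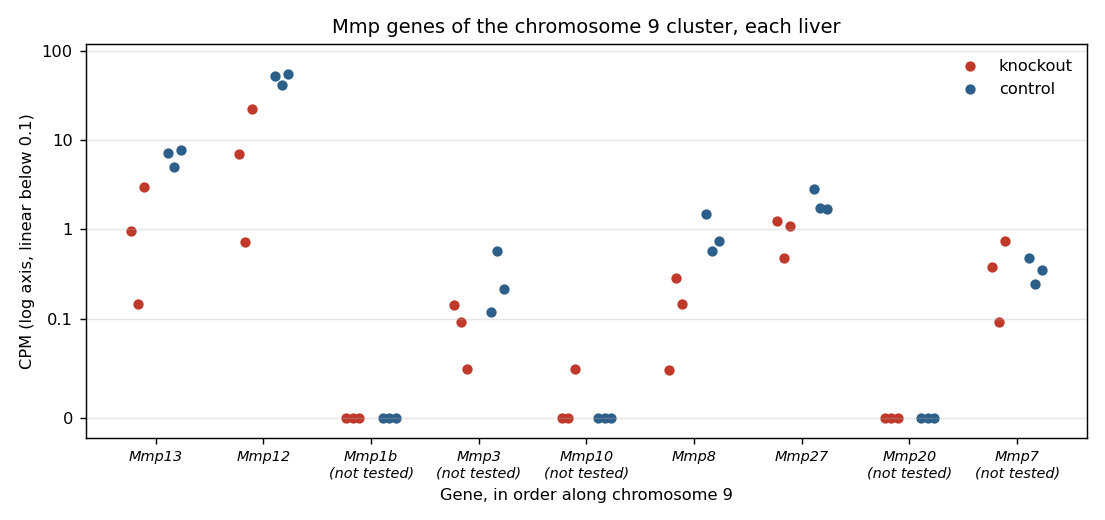
CPM in each knockout and control liver for the 9 Mmp genes of the chromosome 9 cluster, in chromosome order, on a log axis that is linear below 0.1. Mmp12 and Mmp13 carry most of the signal, the knockout points of Mmp13, Mmp12, Mmp8 and Mmp27 lie below all control points, and Mmp1b and Mmp20 are at 0.

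The promoters of this cluster are shown because all its tested genes had lower values in knockouts and because the AP-1 element of Mmp promoters is a textbook control site of these genes. RefSeq promoter windows of 300 bases (250 before to 50 after a start, GRCm38.p6) were matched for 40 of the 57 members. On both strands, the AP-1 letters TGANTCA occurred in 7 of the 9 cluster genes and in 1 of the 31 other members with a window, against 8.97% of all 27025 genes with a window. The TATA box letters TATAAA occurred in 8 of the 9, in 3 of the 31 and in 15.7% of all genes. The genes of the cluster are close relatives, so these counts are not independent. The stretches below run 5′ to 3′ from 100 bases before to 20 bases after the start, all on the plus strand. Matches to the AP-1 or TATA box letters are in capitals. No AP-1 match overlapped a TATA box match.
Mmp13 (chr9:7272414-7272533): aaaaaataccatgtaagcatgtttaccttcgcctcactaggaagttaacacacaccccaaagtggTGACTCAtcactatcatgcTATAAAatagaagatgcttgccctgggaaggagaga
Mmp12 (chr9:7347274-7347393): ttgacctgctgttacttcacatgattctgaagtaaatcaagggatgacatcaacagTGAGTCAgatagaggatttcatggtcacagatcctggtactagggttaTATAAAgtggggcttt
Mmp3 (chr9:7445722-7445841): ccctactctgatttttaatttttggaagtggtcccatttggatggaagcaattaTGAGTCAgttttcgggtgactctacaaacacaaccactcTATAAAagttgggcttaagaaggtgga
Mmp8 (chr9:7558329-7558448): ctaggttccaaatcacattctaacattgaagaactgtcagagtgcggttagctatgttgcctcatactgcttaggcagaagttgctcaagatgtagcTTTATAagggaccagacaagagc
Mmp27 (chr9:7571296-7571415): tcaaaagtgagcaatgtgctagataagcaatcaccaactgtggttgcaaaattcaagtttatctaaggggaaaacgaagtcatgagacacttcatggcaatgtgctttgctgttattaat

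The AP-1 match began 35 bases before the start in Mmp13, 44 bases before it in Mmp12 (the second of the 2 starts listed for that gene) and 46 bases before it in Mmp3. Neither Mmp8 nor Mmp27 held the AP-1 letters. Both lay lower in every knockout liver, and Mmp27 did not pass. Mmp3, which held the letters, had too few counts to be tested. The cluster promoters with the letters included those of expressed and of nearly silent genes. Of the 17 lowered members with a window, 1 (Mmp13) held the AP-1 letters. The TATA box letters began 16 bases before the start in Mmp13, 7 bases before it in Mmp3 and 4 bases after it in Mmp12. In Mmp8 they were read on the opposite strand (TTTATA), from 3 bases before the start. Whether any of these matches works as a control site, or has a part in the differences between the groups, was not tested.

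The membrane-type MMPs gave smaller differences at higher levels. Mmp14, the membrane collagenase that activates pro-MMP2 together with TIMP2, stood at 88.7, 96.7 and 83.2 CPM in knockout livers, against 145, 116 and 111 CPM in control livers. It fell 1.39-fold (log2 −0.47, SE 0.13, adjusted p = 0.0339), without overlap. Mmp14 did not pass without knockout liver 1, knockout liver 3, control liver 1 or control liver 2 (adjusted p 0.0722 to 0.106). Mmp24, a membrane-type MMP best known from the nervous system, stood at 0.336, 0.240 and 0.345 CPM in knockout livers, against 2.66, 1.16 and 1.04 CPM in control livers. With 5 to 7 counts per knockout liver and 24 to 67 per control liver it fell 5.24-fold (log2 −2.39, SE 0.49, adjusted p = 0.00996) and passed in all 16 alternatives that tested it. It shares 13.6% of its exon bases with the opposite-strand gene BC029722, which stood at 19.7 CPM in knockouts and 26.3 CPM in controls. Mmp15, expressed at 66.1, 35.3 and 78.0 CPM in knockout livers, against 49.96, 50.8 and 53.2 CPM in control livers, did not pass (log2 0.22, SE 0.25, adjusted p = 0.558). Its lowest value was knockout liver 2, and without that liver it was higher (log2 0.50, adjusted p = 0.0277, range over 17 alternatives 0.0277 to 0.975). Mmp17 averaged 1.60 ± 0.545 CPM in knockouts and 1.94 ± 0.178 CPM in controls (SD, n = 3 each) and did not pass (adjusted p = 0.544).

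Mmp19 was the only Mmp gene that rose. This secreted MMP, which cuts basement membrane proteins, stood at 86.1, 81.6 and 83.1 CPM in knockout livers, against 41.2, 63.0 and 61.7 CPM in control livers. The knockouts were nearly alike and all lay above the controls, a 1.51-fold higher level (log2 0.60, SE 0.17, adjusted p = 0.0313). The call was lost without knockout liver 1, 2 or 3 (adjusted p 0.0513 to 0.0887) and with library totals (log2 0.34, adjusted p = 0.161). Mmp19 shares 28.3% of its exon bases with opposite-strand genes, of which Tmem198b stood at 3.64 CPM in knockouts and 3.42 CPM in controls. It lies on chromosome 10 (128790910 to 128800824, GRCm38), 11.5 Mb from Lyz2, where Cre was inserted. Timp3, Mmp11 and Adamts14, which passed as lower, lie on the same chromosome, 30.9, 41.3 and 56.0 Mb from Lyz2. The part of this linkage in the differences was not tested. Mmp23, a membrane-anchored MMP without the usual hemopexin domain, fell 2.24-fold, with 1.34 ± 0.135 CPM in knockouts and 3.01 ± 0.554 CPM in controls (SD, n = 3 each, log2 −1.17, SE 0.26, adjusted p = 0.0141). The Mmp23 call was lost without knockout liver 1, control liver 2 or control liver 3 (adjusted p 0.0522 to 0.0583). Mmp28, epilysin, did not pass (log2 −0.85, adjusted p = 0.250), and its highest knockout value of 3.66 CPM was again that of knockout liver 2 (log2 −1.68, adjusted p = 0.0193 without it, range over 17 alternatives 0.0193 to 0.467).

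Of 3 tested TIMP genes, Timp1 and Timp3 fell and Timp2 did not pass, where 13.1% of all genes tested were lower. Timp1, the inducible inhibitor that rises in injured liver and marks fibrosis, had 10, 2 and 13 counts in knockout livers, against 74, 73 and 85 counts in control livers. In CPM it stood at 0.479, 0.0962 and 0.641 in knockouts, against 2.94, 3.53 and 3.70 in controls. The groups lay far apart, and the fitted 8.27-fold fall (log2 −3.05, SE 0.47, adjusted p = 0.0034) passed in each of the 17 alternatives, although knockout liver 2 was below the limit of 3 counts. Timp3, the matrix-bound inhibitor that also blocks ADAM17, stood at 12.7, 18.9 and 11.5 CPM in knockout livers, against 20.5, 39.7 and 24.5 CPM in control livers. The fall was 1.96-fold (log2 −0.97, SE 0.27, adjusted p = 0.0329) with a narrow gap between the groups. Timp3 did not pass without knockout liver 1, knockout liver 3, control liver 2 or control liver 3 (adjusted p 0.0615 to 0.108), and its log2 was −0.63 without control liver 2. Timp3 lies within the gene Syn3 on the opposite strand and shares 21.3% of its exon bases with it. Syn3 stood at 1.10 CPM in knockouts and 1.23 CPM in controls. The part of this overlap in the Timp3 counts was not tested. Timp2, the constitutive inhibitor that also takes part in pro-MMP2 activation, stood at 20.1, 27.1 and 18.7 CPM in knockout livers, against 26.5, 27.1 and 28.0 CPM in control livers. Knockout liver 2 matched the controls, and the difference did not pass (log2 −0.31, SE 0.15, adjusted p = 0.172; 0.0272 without that liver, range over 17 alternatives 0.0150 to 0.391). Timp4 had 1 count in all 6 livers together.

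**Figure D3:**
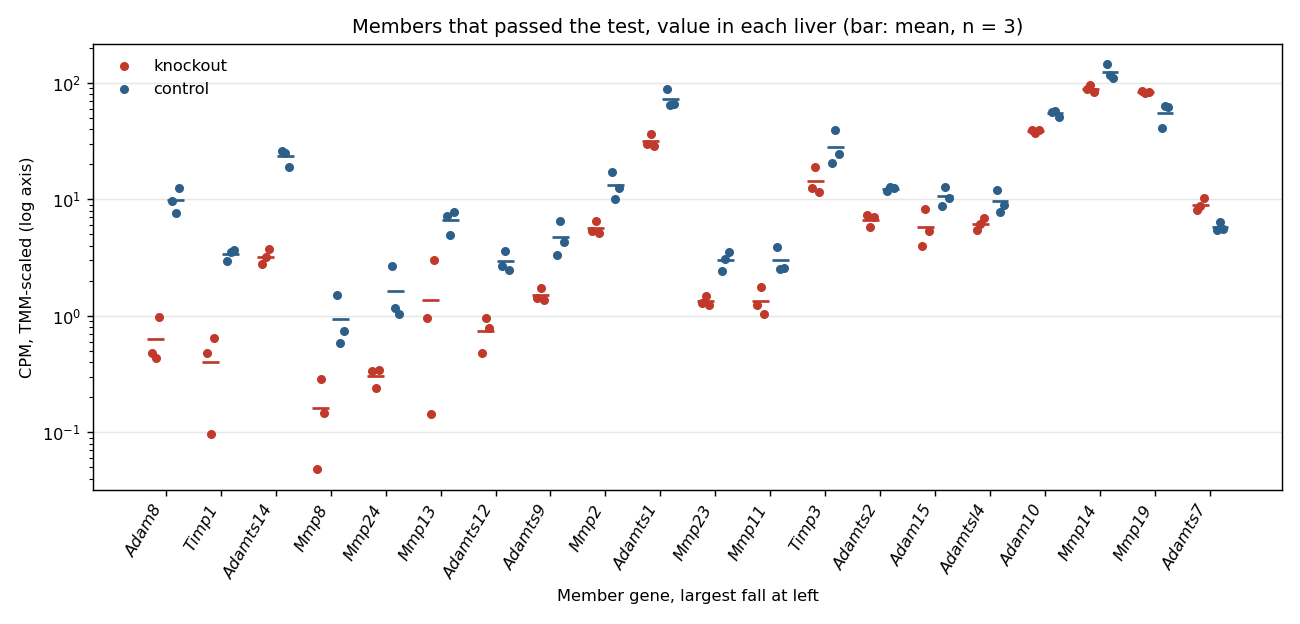
CPM in each liver, on a log axis, of the 20 members that passed the test, ordered from the largest fall at left to the rises at right, with group means of 3 livers as bars. Every knockout point lies below every control point in the 18 members that fell, and above in Mmp19 and Adamts7. These members were selected by the test on the same livers, so the separation is no further support. Among all tested genes, passed or not, 22.5% had such lower and 21.4% such higher values.

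Summed levels of the enzymes and of their inhibitors are set side by side, in CPM per kb of exon. The 22 Mmp genes summed to 57.3, 51.3 and 60.5 in knockout livers, against 67.5, 63.2 and 66.0 in control livers. The 4 Timp genes summed to 7.26, 9.38 and 6.93 in knockout livers, against 12.6, 15.8 and 14.4 in control livers. The Mmp to Timp ratio of transcripts was thus 7.89, 5.47 and 8.73 in knockout livers, against 5.35, 3.995 and 4.59 in control livers. All knockout livers lay above all control livers, but knockout liver 2 (5.47) and control liver 1 (5.35) were close. The Mmp sum was carried by few genes: Mmp19 made up 41.9% of it in knockouts and 23.9% in controls, Mmp14 26.6% and 31.8%, and Mmp12 2.48% and 10.5%. Timp1 made up 5.81% of the Timp sum in knockouts and 26.8% in controls. A ratio of transcripts describes RNA and not protease activity.

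**Figure D4:**
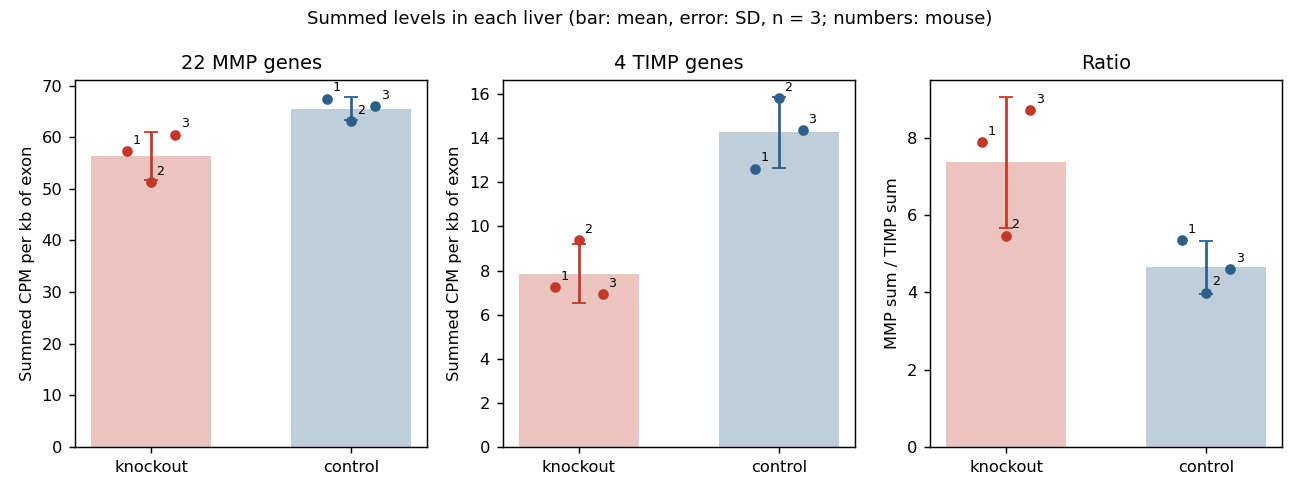
Summed CPM per kb of exon of the 22 Mmp genes and the 4 Timp genes, and their ratio, in each liver, with bars for the mean, error bars for the SD (n = 3) and the mouse number beside each point. The Timp sum averages 7.86 in knockouts and 14.3 in controls, the Mmp sum 56.4 and 65.5, and the ratio 7.36 and 4.64.

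Of 13 tested ADAMTS genes, 5 fell and 1 rose, where 13.1% of all genes tested were lower and 11.9% higher. Both procollagen N-proteinases with clear expression fell, enzymes that remove the amino-terminal propeptide of fibrillar procollagens. Adamts14 stood at 2.78, 3.18 and 3.75 CPM in knockout livers, against 26.0, 25.2 and 19.2 CPM in control livers, a 7.24-fold lower level (log2 −2.86, SE 0.18, adjusted p = 0.000179). It lies on chromosome 10 (61197112 to 61273438, GRCm38), 56.0 Mb from Lyz2, and its exons overlap no other annotated gene. Adamts2 stood at 7.29, 5.77 and 6.999 CPM in knockout livers, against 11.8, 12.7 and 12.5 CPM in control livers (log2 −0.88, SE 0.15, adjusted p = 0.0046). Both groups were tight for Adamts2 and for Adamts14, and both genes passed in all 17 alternatives. Adamts3, the third of these enzymes, was at most 0.962 CPM in any liver and did not pass (adjusted p = 0.735).

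Among the proteoglycanases, which cut versican and aggrecan, Adamts1 and Adamts9 fell. Adamts1 stood at 29.8, 36.7 and 28.9 CPM in knockout livers, against 88.2, 64.8 and 66.1 CPM in control livers (log2 −1.20, SE 0.16, adjusted p = 0.00183). It was the most abundant ADAMTS gene per length in both groups, and its fall was 2.30-fold. Adamts9 stood at 1.44, 1.73 and 1.38 CPM in knockout livers, against 3.34, 6.58 and 4.35 CPM in control livers (log2 −1.64, SE 0.30, adjusted p = 0.00673). The exons of Adamts9 overlap the opposite-strand genes A730049H05Rik and Gm15737, which had under 0.25 CPM in every liver. Adamts4 stood at 0.671, 2.50 and 0.739 CPM in knockout livers, against 2.78, 4.88 and 3.31 CPM in control livers, and did not pass (log2 −1.48, SE 0.50, adjusted p = 0.0607). Its highest knockout value was in liver 2, without which it passed (log2 −2.36, adjusted p = 0.00464), as it did with DESeq2, limma-voom, library totals and no filter (range over 17 alternatives 0.00464 to 0.187). Adamts15 stood at 1.97, 3.51 and 1.48 CPM in knockout livers, against 5.56, 3.24 and 5.87 CPM in control livers, so the groups overlapped through knockout liver 2 and control liver 2 (log2 −1.08, SE 0.36, adjusted p = 0.0612; 0.0180 without knockout liver 2, range over 17 alternatives 0.0162 to 0.180). Adamts5 had lower values in every knockout liver and did not pass (adjusted p = 0.0708).

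The closely related Adamts12 and Adamts7, both known to cut cartilage oligomeric matrix protein, moved in opposite directions. Adamts12 stood at 0.479, 0.962 and 0.789 CPM in knockout livers, against 2.70, 3.63 and 2.48 CPM in control livers (log2 −1.97, SE 0.33, adjusted p = 0.00478), and passed in every alternative. Adamts7 stood at 8.10, 8.80 and 10.2 CPM in knockout livers, against 5.48, 6.38 and 5.61 CPM in control livers (log2 0.63, SE 0.16, adjusted p = 0.0244). The rise of Adamts7 was 1.55-fold and was lost without knockout liver 3, control liver 1 or control liver 3 (adjusted p 0.0619 to 0.067) and with library totals (log2 0.38, adjusted p = 0.133). Adamts7 shares 1.9% of its exon bases with the opposite-strand gene Tbc1d2b, at 40.5 CPM in knockouts and 44.2 CPM in controls. Adamts13, the von Willebrand factor-cleaving protease made by hepatic stellate cells, stood at 10.6, 7.22 and 10.9 CPM in knockout livers, against 9.29, 7.79 and 7.96 CPM in control livers. The groups overlapped and Adamts13 did not pass (log2 0.20, SE 0.19, adjusted p = 0.487). Adamts6 (4.69 CPM in knockouts, 3.76 CPM in controls) and Adamts10 (8.15 CPM in knockouts, 9.95 CPM in controls) did not pass either (adjusted p = 0.281 and 0.330).

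ADAMTS-like proteins resemble ADAMTS proteases but lack the catalytic domain and associate with microfibrils. Of the 4 tested, only Adamtsl4 passed, where 25.0% of all genes tested did. Adamtsl4 stood at 5.51, 6.11 and 6.90 CPM in knockout livers, against 12.1, 7.74 and 9.04 CPM in control livers (log2 −0.64, SE 0.20, adjusted p = 0.0491). The call was lost when any 1 liver other than control liver 2 was left out (adjusted p 0.0603 to 0.158), with limma-voom (0.0558) and with the GC offset (0.0745). Adamtsl2 stood at 10.3, 18.5 and 8.13 CPM in knockout livers, against 22.9, 16.5 and 21.1 CPM in control livers, and the groups overlapped through liver 2 of each group (log2 −0.71, SE 0.28, adjusted p = 0.102; 0.00638 without knockout liver 2, range over 17 alternatives 0.00638 to 0.262). Adamtsl1 (log2 0.19) and Adamtsl5 (log2 0.20) also overlapped and did not pass.

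All 7 ADAM genes were tested, and 3 fell, where 13.1% of all genes tested were lower. Adam8, a sheddase of leukocytes, gave the largest fall of all members, at 0.479, 0.433 and 0.986 CPM in knockout livers, against 9.73, 7.64 and 12.6 CPM in control livers (log2 −3.97, SE 0.35, adjusted p = 0.0005). Adam8 shares 1.0% of its exon bases with the opposite-strand gene Gm16201, which had 0 counts in the knockout livers and at most 0.159 CPM in a control liver. Adam10, the constitutive sheddase of Notch receptors and cadherins, stood at 39.2, 37.0 and 39.1 CPM in knockout livers, against 56.6, 57.9 and 50.8 CPM in control livers. This small difference of 1.43-fold exceeded the spread within groups (log2 −0.52, SE 0.11, adjusted p = 0.00981) and passed in every alternative. Adam17, which releases tumour necrosis factor and its receptors, stood at 23.9, 20.4 and 27.1 CPM in knockout livers, against 33.8, 29.3 and 30.3 CPM in control livers. All knockout livers lay below the controls, and the difference did not pass (log2 −0.39, SE 0.13, adjusted p = 0.0646; 0.0408 without knockout liver 3, range over 17 alternatives 0.0158 to 0.182). Adam17 shares 4.3% of its exon bases with the opposite-strand gene Iah1, which was higher in knockouts (97.1 CPM, against 52.5 CPM in controls).

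Adam15, metargidin, stood at 3.98, 8.23 and 5.32 CPM in knockout livers, against 8.86, 12.7 and 10.4 CPM in control livers (log2 −0.86, SE 0.27, adjusted p = 0.048). Knockout liver 2 came close to the lowest control, and the call was lost when any 1 liver other than knockout liver 2 was left out (adjusted p 0.0611 to 0.160), with the GC offset (0.0786) and among protein-coding genes only (0.0506). The opposite-strand gene 4731419I09Rik, which shares 20.6% of the exon bases of Adam15, averaged 0.0639 CPM in knockouts and 0.0484 CPM in controls. Adam12, a sheddase of mesenchymal cells, had 5 to 12 counts in knockout livers and 16 to 32 in control livers and did not pass (log2 −1.45, SE 0.49, adjusted p = 0.0631; 0.0480 without knockout liver 2, range over 16 alternatives 0.0287 to 0.224). Adam19, also low, was lower in every knockout liver and did not pass (adjusted p = 0.145). Adam9 stood at 105, 112 and 110 CPM in knockout livers, against 107, 96.5 and 105 CPM in control livers, with overlapping groups (log2 0.08, SE 0.10, adjusted p = 0.606).

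Of the 21 tested members that did not pass, 8 had all knockout livers below all control livers: Mmp9, Mmp12, Mmp27, Adam12, Adam17, Adam19, Adamts4 and Adamts5. The others overlapped. Among all tested genes, passed or not, 22.5% had all knockout livers below all control livers. The share among only the genes that did not pass was not counted. Knockout liver 2 had the lowest knockout values of Mmp12, Mmp13 and Timp1 and the highest of Timp2, Timp3, Adamts4, Adamts15, Adamtsl2, Mmp28, Adam12 and Adam15. These members were picked from the 41 tested, and in any group some liver is lowest and some liver highest. Knockout liver 3, for example, was the highest knockout for Adam8, Adamts14 and Adamts7. How often each liver was lowest or highest over all members or all genes was not counted. In the same livers, the 10 markers shared by myeloid cells summed to 183, 128 and 258 CPM in knockouts, against 493, 410 and 406 CPM in controls. The 11 endothelial markers summed to 321, 427 and 324 CPM in knockouts, against 385, 415 and 414 CPM in controls, and the 7 cholangiocyte markers to 26.1, 40.5 and 23.5 CPM in knockouts, against 32.6, 33.2 and 31.0 CPM in controls. Liver 2 was thus the lowest knockout for the first list and the highest for both others. It was also the highest knockout for the summed hepatocyte, stellate cell and mesothelial or portal fibroblast markers. The part of cell content in the members' values was not tested. Without knockout liver 2, 24 members were lower and the median log2 of the members was −1.12. Of all genes tested, 10.8% were lower without that liver.

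The marker lists moved unequally between the groups, where 13.1% of all genes tested were lower and 11.9% higher. Of the 10 shared myeloid markers, 9 fell, as did 8 of 10 Kupffer cell markers, 6 of 7 monocyte markers, 6 of 7 markers of lipid-associated macrophages and 3 of 5 tested neutrophil markers (5 of the 10 listed had too few counts). The Kupffer cell count was 4 without knockout liver 1, control liver 1 or control liver 2 and 5 without control liver 3. Of 9 stellate cell markers, 2 fell and 1 rose, and their summed level ran from 472 to 528 CPM in knockouts and from 376 to 459 CPM in controls. Ecm1, the marker that rose, made up much of this sum, and without it (an alternative chosen after seeing the data) the other 8 summed to 260 to 280.4 CPM in knockouts and 264 to 302 CPM in controls. The log2 was negative for 6 of the 9. The count of stellate cell markers that fell was 4 without knockout liver 2 and 1 without control liver 2 or 3, and 0 of them rose with library totals. None of the 11 endothelial, 6 tested cholangiocyte and 6 mesothelial or portal fibroblast markers passed with edgeR. At an unadjusted p under 0.05, 2 endothelial, 1 cholangiocyte and 2 mesothelial or portal fibroblast markers were lower. DESeq2 called 1, 0 and 1 of them lower, limma-voom 1, 0 and 0, library totals 5, 1 and 2, and edgeR without knockout liver 2 called 2, 1 and 1. Of 4 tested T and NK cell markers 1 fell. Of 3 tested B cell markers, 0 passed with edgeR, DESeq2 or limma-voom and 1 was lower at an unadjusted p under 0.05. Of the 8 hepatocyte markers matched, the defining markers of the tissue, 4 rose (2 without control liver 1). All 8 summed to 97460 to 133100 CPM in knockouts and 68670 to 83470 CPM in controls. Alb made up most of this sum, at 72350 to 96510 CPM in knockouts and 52690 to 60300 CPM in controls. It did not pass with edgeR (log2 0.55, adjusted p = 0.131). Apoa1, Apob and Hnf4a did not pass either, and the log2 of Apoa1 was negative (−0.13). The part of these cell types in the fall of the Mmp, Adam and Timp genes was not tested.

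Other genes of the same proteolytic system were described from fixed lists, beside 13.1% lower and 11.9% higher among all genes tested. Of 10 activators of the precursor enzymes (proprotein convertases and the plasminogen system), 3 fell and 3 rose. Plaur, the urokinase receptor, fell to 1.72 ± 0.400 CPM in knockouts, against 11.4 ± 3.33 CPM in controls (SD, n = 3 each, adjusted p = 0.000869), while Klkb1, plasma prekallikrein of hepatocytes, rose to 141 ± 5.06 CPM in knockouts, against 45.7 ± 12.04 CPM in controls (SD, n = 3 each, adjusted p = 0.0012). Of 9 tested inhibitors other than TIMPs, 5 rose and 1 fell. Mug1, a murinoglobulin that traps proteases in plasma, rose to 1726 ± 225 CPM in knockouts, against 842 ± 71.6 CPM in controls (SD, n = 3 each, adjusted p = 0.00285). The count of inhibitors that rose was 2 with library totals, 2 without knockout liver 1 or control liver 2, and 3 without knockout liver 2.

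Proteins that carry ADAM10 and ADAM17 to the cell surface, the iRhoms and tetraspanins, included 4 that fell among 8 tested. For this and the next lists, the share of all genes tested that were lower was 13.1%. Rhbdf2, the iRhom partner of ADAM17, stood at 21.01 ± 2.33 CPM in knockouts and 47.8 ± 5.48 CPM in controls, and Tspan15, a tetraspanin partner of ADAM10, at 6.45 ± 0.591 CPM in knockouts and 14.4 ± 1.17 CPM in controls (SD, n = 3 each). The log2 fold change was −1.19 for Rhbdf2 (adjusted p = 0.00105) and −1.16 for Tspan15 (adjusted p = 0.00132). Of 20 tested transcripts of proteins shed by these enzymes, 15 fell. The count was 9 without knockout liver 1, control liver 1 or control liver 3, and 10 to 14 without any 1 of the others. Icam1, an adhesion molecule for leukocytes, stood at 27.2 ± 1.85 CPM in knockouts and 58.4 ± 9.10 CPM in controls (SD, n = 3 each, adjusted p = 0.00149). Of 19 tested matrix substrates, 16 fell, among them the collagen chains Col5a2 (log2 −1.94, SE 0.18) and Col4a1 (log2 −1.46, SE 0.14).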

How the data were processed

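Whole-liver poly(A) RNA of 6 mice was sequenced. The authors deposited raw read counts per Ensembl gene, 1 column per mouse. The submitters' processing notes list featureCounts 1.5.0-p3, HISAT2 2.0.5, StringTie 1.3.3b and the build GRCm38.p6, with no role or order. Strand setting, annotation release and handling of multi-mapped reads: not given in the sources used here. Exon overlap with opposite-strand genes is therefore stated for members where the counts could be affected; 17 of 57 members have some and none overlap on the same strand. Identifiers were matched to GENCODE M21 (GRCm38; 54495 of 54532 genes). All columns were used.

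Genes were filtered with filterByExpr, scaled by TMM and compared in edgeR 4.0.16 (R 4.3.3) by its quasi-likelihood test without covariates, with Benjamini-Hochberg adjustment over 14758 genes. SE is the size of the log2 fold change over the square root of F. CPM uses TMM-scaled library sizes, and CPM per kb divides by merged exon length. The limit for 0 is 3 counts, for counting error only, and its range in CPM uses unscaled library totals. Within each group the livers differed beyond counting error (chi-square over its degrees of freedom 26.3 or more), and the labels number them as separate mice. The steps were tested on simulated data. Members and gene lists were chosen with earlier results of these data known. Every member that passed is named, with all TIMPs, Mmp2, Mmp9, Mmp14, Adam10, Adam17 and up to 2 others per role by smallest p; Adam9, Adam19, Adamts5 and Adamtsl5 were added after their values were seen. From each other list, up to 2 genes that passed are named by smallest p; some that this rule picks are not reported here. Figures were drawn with matplotlib 3.10.9.

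Alternatives were DESeq2 1.42.0, limma-voom (limma 3.58.1), RLE size factors, library totals, no filter, at least 50 counts in 3 livers, omission of the 20 genes with most counts, a fit on protein-coding genes, GC or exon-length offsets in 20 bins, the mouse number as a block, thresholds of 0.01 and 0.1, and each liver left out.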

Additional observations from a re-analysis of the deposited data

How the results depend on the processing

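The count of lower members was 18. It was 29 with library totals, 10 at a threshold of 0.01 and 10 to 24 when 1 liver was left out (10 without knockout liver 1). Of all genes tested, 13.1% were lower in the main fit, 25.1% with library totals and 7.78% to 12.1% with 1 liver left out. The share of all genes at a threshold of 0.01 was not counted. The count of higher members was 2. It was 0 with library totals, 0 at a threshold of 0.01 and 0 to 2 when 1 liver was left out. Of all genes tested, 11.9% were higher in the main fit, 6.13% with library totals and 7.21% to 10.4% with 1 liver left out. The median log2 of the members was −0.86, and it was −1.13 with library totals, which moved the median of all genes to −0.26, and −1.12 to −0.69 with 1 liver left out. The other alternatives gave 16 to 26 lower and 2 higher members. In those at the 0.05 threshold, 7.78% to 14.4% of all genes fitted were lower and 7.32% to 13.2% higher. The lowest shares are those of DESeq2, over all 26288 genes with any count, with or without an adjusted p. DESeq2 and the fit with no filter covered 51 members, against 41 in the main fit. The fit with at least 50 counts in 3 livers covered 32. The cause of the moves between alternatives was not tested.

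Of 20 members that passed, 10 passed in every alternative that tested them (Adam8, Adam10, Adamts1, Adamts2, Adamts9, Adamts12, Adamts14, Mmp2, Mmp24 and Timp1). No member that passed changed sign. Signs turned for members that had not passed: with library totals the log2 of Adamts13 was −0.047, of Adamtsl1 −0.058 and of Mmp15 −0.017. With 1 liver left out, Adamtsl1 ran from −0.012 (without knockout liver 1) to 0.374 (without knockout liver 3), and Mmp15 from −0.013 (without knockout liver 3) to 0.495 (without knockout liver 2).

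With the mouse number as a replicate block, 17 members were lower and 2 higher, where 11.2% and 9.74% of all genes tested were. Same-numbered livers did not deviate together (correlations of −0.027, 0.044 and −0.018), so the numbers were not taken as pairs. Under this block Mmp8, Mmp11, Mmp14 and Adamtsl4 did not pass, and Mmp12, Adam12 and Adamts4 did. Depth limits Timp1, Mmp8 and Mmp24, with 1 to 13 counts in each knockout liver.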
